A study of Mus musculus with 6 samples.

Results

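Kupffer cells are the resident macrophages of the liver sinusoids. A set of 10 of their marker genes was followed here in liver RNA of C57BL/6 mice, an inbred strain, after 2 days on a high fat diet (HFD) or a regular diet (RD). The 10 genes were Cd5l, Clec4f, Vsig4, Marco, Timd4, Cd163, Adgre1, Csf1r, Folr2 and Msr1, out of 19938 genes tested. All 10 were measured, each by 1 probe set with a single gene symbol in the platform annotation. Each diet had 3 biological replicates with 1 array each, and all mice ate ad libitum. The titles of all 6 samples hold the unexplained letters NI, and the make-up of the diets, the age and the sex were not used here.

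Kupffer cells line the blood side of the sinusoids and clear bacteria, dead cells, aged red cells and modified lipoproteins from the portal blood. Many settle before birth and renew in place, under signals from endothelial and stellate cells. Their surface carries complement and scavenger receptors, and they secrete complement subunits and other glycoproteins. Whole liver RNA is mostly from hepatocytes, and in such bulk RNA, more cells of a type and more RNA per cell cannot be told apart.

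After 2 days of HFD, 4 of the 10 markers rose and 0 fell (limma, Benjamini-Hochberg adjusted p under 0.05 over all genes). Of all genes tested, 3.11% were higher and 2.24% lower by the same rule. The 4 were Cd5l, Marco, Adgre1 and Timd4, with folds between 1.59 and 1.86. The other 6 did not pass, and 5 of them had a positive difference. The median log2 difference of the 10 markers was 0.36, against -0.0029 over all genes. The 10 markers were chosen with earlier results of these data known, so these contrasts with all genes are descriptions and not tests. Differences are given throughout as HFD minus RD on the log2 scale.

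The promoters of 3 of the markers that rose are shown first, with that of Cd163, the only marker with a negative difference. The RefSeq table of mouse promoters (GRCm38.p6) held 7 of the 10 markers by symbol, as 8 promoters, and Adgre1 was not among them. Each line is the 250 bases before the annotated start, read 5′ to 3′ on the strand of the gene. Capitals mark GAGGAA or its reverse complement TTCCTC, the core letters bound by PU.1, the master factor of macrophages.
Cd5l promoter: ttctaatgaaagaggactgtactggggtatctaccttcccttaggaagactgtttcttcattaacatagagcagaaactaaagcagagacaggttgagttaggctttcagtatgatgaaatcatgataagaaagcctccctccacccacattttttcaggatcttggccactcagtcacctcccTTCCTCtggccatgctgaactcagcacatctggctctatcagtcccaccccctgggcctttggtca
Marco promoter: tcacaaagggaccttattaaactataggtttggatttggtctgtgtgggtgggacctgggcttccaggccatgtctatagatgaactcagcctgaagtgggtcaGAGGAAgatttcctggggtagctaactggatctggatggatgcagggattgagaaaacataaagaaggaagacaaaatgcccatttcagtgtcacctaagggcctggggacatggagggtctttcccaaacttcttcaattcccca
Timd4 promoter: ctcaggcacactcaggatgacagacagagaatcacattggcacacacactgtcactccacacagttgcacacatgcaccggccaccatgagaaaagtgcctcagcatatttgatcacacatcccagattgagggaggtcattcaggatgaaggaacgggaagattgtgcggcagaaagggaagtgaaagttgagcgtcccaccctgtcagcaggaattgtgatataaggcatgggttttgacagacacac
Cd163 promoter: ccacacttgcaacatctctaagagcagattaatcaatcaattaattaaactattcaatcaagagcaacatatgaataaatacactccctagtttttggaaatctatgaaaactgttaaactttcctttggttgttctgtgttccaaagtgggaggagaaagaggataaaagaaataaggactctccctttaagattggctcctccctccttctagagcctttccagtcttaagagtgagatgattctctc

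The Cd5l stretch lies at chr3:87357631-87357880 on the plus strand, with 1 match whose outer base is 66 bases before the start. The Marco stretch lies at chr1:120505025-120505274 on the minus strand, with 1 match 146 bases before the start. The Timd4 stretch (chr11:46810549-46810798, plus strand) and the Cd163 stretch (chr6:124304401-124304650, plus strand) held 0 matches. Among the other promoters, that of Vsig4 held 2 matches and those of Clec4f and Folr2 held 0. In all, 3 of the 8 promoters (3 of 7 markers) had a match, and 23.3% of 32851 mouse promoters of the same length had one. The MAF core letters TGCTGA were found in 5 of the 8 promoters and in 16.1% of all promoters. Those 5 belonged to 4 markers (Cd5l, Clec4f, Timd4 and Folr2). The SMAD letters CAGAC were found in 5 of the 8 and in 42.2% of all promoters. The RBPJ letters TGGGAA were found in 2 of the 8 and in 21.6% of all promoters. The nuclear receptor core letters AGGTCA were found in 2 of the 8 and in 14% of all promoters. Their direct repeat with 4 bases between, AGGTCANNNNAGGTCA, was found in 0 of the 8 and in 0.0152%. Both strands were searched, no match of another motif overlapped a PU.1 match, the repeat holds the core letters by construction, and a match describes letters and not a bound site.

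The marker that rose at the smallest p was Cd5l (probe set 10492964), a secreted glycoprotein of macrophages with scavenger receptor cysteine-rich domains that protects them from apoptosis. Its log2 signal was 11.43, 10.99 and 11.12 in HFD replicates 1 to 3, against 10.31, 10.23 and 10.45 in RD replicates 1 to 3. Every HFD array lay above every RD array. The mean was 11.18 ± 0.23 in HFD and 10.33 ± 0.11 in RD (SD, n = 3 each), a difference of 0.85 ± 0.12 (SE; limma adjusted p = 0.0066) or 1.80-fold. Cd5l passed whichever array was left out, with differences of 0.72 to 0.94 (limma adjusted p up to 0.034).

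Timd4 (probe set 10375472) encodes a receptor for phosphatidylserine that takes up apoptotic cells and marks Kupffer cells that settled before birth. Its signal was 9.49, 9.04 and 9.16 in HFD, against 8.52, 8.53 and 8.65 in RD. The diets did not overlap, and the gap between the lowest HFD and the highest RD array was wider than the whole RD range. The difference was 0.67 ± 0.11 (limma adjusted p = 0.016), a 1.59-fold rise. Timd4 did not pass without RD replicate 1 or RD replicate 2 (limma adjusted p = 0.068 for each).

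Of the class A scavenger receptors, Marco passed and Msr1 did not, and the difference between their changes was not tested. Marco (probe set 10357261) binds bacteria and particles. Its signal was 8.08, 7.18 and 7.27 in HFD, against 6.68, 6.63 and 6.54 in RD, so the diets did not overlap and HFD replicate 1 stood above the other HFD arrays. Marco rose by 0.89 ± 0.21 (limma adjusted p = 0.046), or 1.86-fold, with a difference of 0.61 without HFD replicate 1. That call was lost without HFD replicate 3 or any 1 RD array (limma adjusted p = 0.067 to 0.134). Msr1 (probe set 10578264), which takes up modified low-density lipoprotein, had 9.79, 9.51 and 9.47 in HFD, against 9.33, 9.35 and 9.48 in RD. The lowest HFD array was just under the highest RD array, and the difference was 0.20 ± 0.10 (limma adjusted p = 0.289), or 0.11 without HFD replicate 1.

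Adgre1 (probe set 10446282) encodes an adhesion receptor used to stain mouse macrophages. Its signal was 10.78, 10.05 and 10.13 in HFD, against 9.46, 9.56 and 9.46 in RD. HFD replicate 1 was again the highest array, and the diets did not overlap. Adgre1 rose by 0.82 ± 0.17 (limma adjusted p = 0.032), or 1.77-fold, and by 0.60 without HFD replicate 1. The call was lost without HFD replicate 3 or any 1 RD array (limma adjusted p = 0.053 to 0.112).

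The receptors Clec4f and Vsig4 were higher in every HFD array than in any RD array, yet neither passed. Clec4f (probe set 10545731), a lectin for galactose-bearing glycans found on mouse Kupffer cells, had 10.93, 10.72 and 11.00 in HFD, against 10.54, 10.52 and 10.71 in RD. Its difference was 0.29 ± 0.09, with a 95% confidence interval from 0.08 to 0.50 (limma adjusted p = 0.119). Vsig4 (probe set 10605848), a complement receptor that captures C3b-coated bacteria, had 12.30, 11.93 and 12.16 in HFD, against 11.91, 11.83 and 11.89 in RD. Its difference was 0.26 ± 0.10, with an interval from 0.04 to 0.48 (limma adjusted p = 0.184). The interval of Cd5l, from 0.58 to 1.12, lay above both, and the differences between markers were not tested.

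Folr2 (probe set 10566026), the folate receptor beta of macrophages, had 10.18, 9.60 and 10.02 in HFD, against 9.38, 9.51 and 9.61 in RD. Only HFD replicate 2 fell within the RD range. The difference was 0.43 ± 0.14 (limma adjusted p = 0.131), and it passed without HFD replicate 2, at 0.60 (limma adjusted p = 0.023). Csf1r (probe set 10456071), the receptor for the survival factors CSF1 and IL-34, had 10.89, 10.30 and 10.56 in HFD, against 10.32, 10.41 and 10.43 in RD. The HFD arrays spanned the RD range, and the difference was 0.19 ± 0.13, with an interval from -0.11 to 0.50 (limma adjusted p = 0.492). It was 0.041 without HFD replicate 1 and 0.34 without HFD replicate 2. Cd163 (probe set 10541644), the receptor that removes complexes of haemoglobin and haptoglobin, had 8.24, 8.10 and 8.55 in HFD, against 8.19, 8.58 and 8.43 in RD. Its arrays overlapped and its difference was -0.10 ± 0.13, with an interval from -0.41 to 0.21 (limma adjusted p = 0.747). It ran from -0.23 without HFD replicate 3 to -0.0042 without HFD replicate 2.

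**Figure D1:**
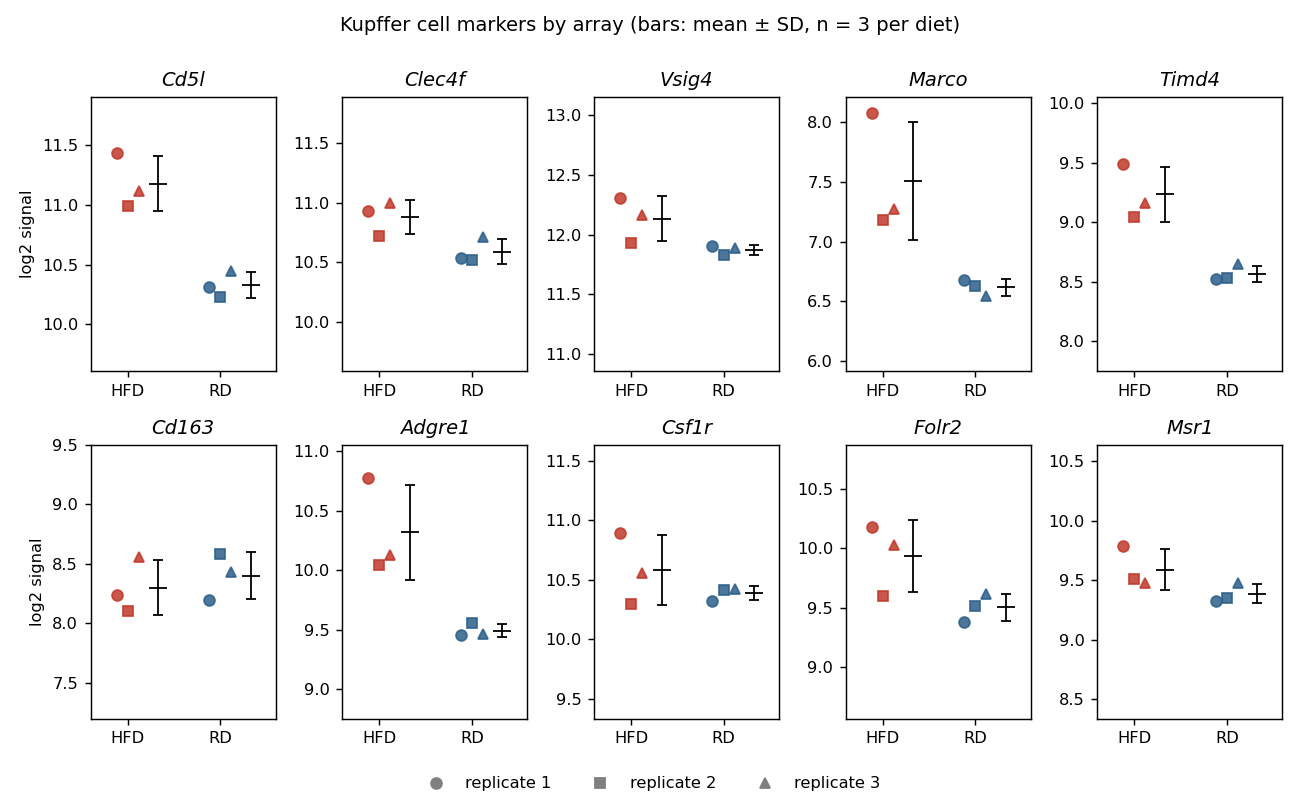
Log2 signal of the 10 Kupffer cell markers in each array, HFD left and RD right, with replicates 1 to 3 as circle, square and triangle and mean ± SD as bars (n = 3 per diet). The vertical axes span the same log2 range in each panel, and Cd5l, Marco, Timd4, Adgre1, Clec4f and Vsig4 show no overlap between the diets.

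In all, 6 of 10 markers had every HFD value above every RD value, as had 14.0% of all genes, and 0 had every HFD value below, as had 11.7% of all genes. At an unadjusted limma p under 0.05, 7 of 10 were higher and 0 lower, against 11.0% and 8.65% of all genes. A positive difference was seen for 9 of 10 markers and for 49.2% of all genes. These shares too describe markers chosen with earlier results of these data known.

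**Figure D2:**
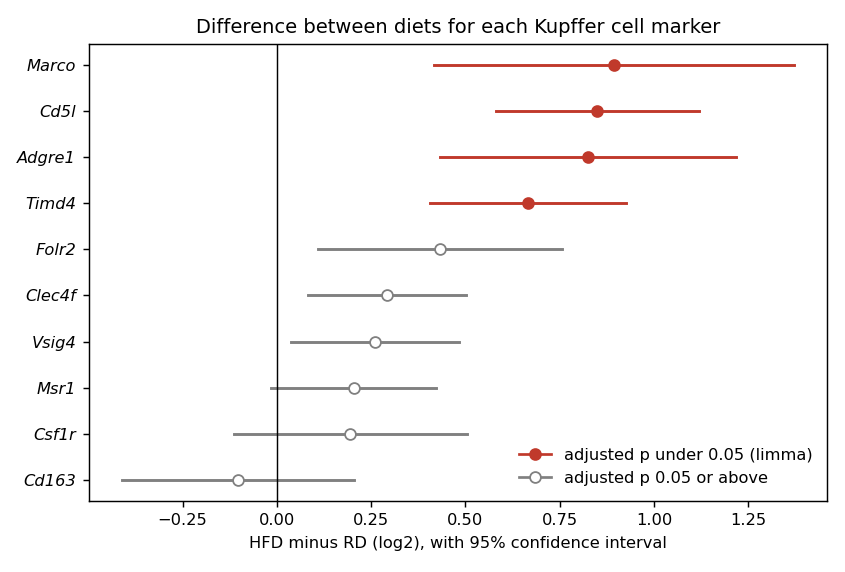
Difference between the diets (HFD minus RD, log2; horizontal axis) for each marker, with its 95% confidence interval from limma. Filled red points passed at an adjusted p under 0.05: Marco, Cd5l, Adgre1 and Timd4, at 0.67 to 0.89.

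The markers varied more among the 3 HFD livers than among the 3 RD livers. The SD was larger in HFD for 10 of 10 markers, and for 51.4% of all genes. All 10 were read in the same 3 livers per diet, so they are not independent, and the difference in spread was not tested. It ran from 0.14 to 0.50 in HFD and from 0.04 to 0.20 in RD. HFD replicate 1 was the highest HFD array for 8 of the 10 markers, and HFD replicate 2 was the lowest for 9. The list means of other surface and secreted Kupffer cell genes and of macrophage transcription factors had this order too. The SD of the list mean was 0.16 in HFD and 0.05 in RD for the former, and 0.19 and 0.05 for the latter. It was 0.23 and 0.05 for the 10 markers, and 0.03 and 0.05 for stellate cell markers. Relative to the mean over all arrays, the 10 Kupffer cell markers averaged 0.47, 0.0024 and 0.20 in HFD replicates 1 to 3, against -0.28, -0.23 and -0.18 in RD replicates 1 to 3. Every HFD array was above every RD array on this average. Without HFD replicate 1 the same 4 markers rose, and the median difference was 0.29. The count was 2 without HFD replicate 3 or RD replicate 3, 1 without RD replicate 1 or RD replicate 2, and 5 without HFD replicate 2. Calls fell over all genes too: with 1 array left out, 197 to 371 genes were higher, against 621 with all arrays. Of all genes tested, 1.84% were higher without HFD replicate 3 and 1.77% without RD replicate 3. That share was 0.988% without RD replicate 1, 1.14% without RD replicate 2, 1.86% without HFD replicate 2 and 1.5% without HFD replicate 1.

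Single markers departed from the common pattern to different degrees. The root mean square difference from the mean profile of the 10 markers over the 6 arrays was smallest for Folr2, at 0.075 on the log2 scale. It was largest for Cd163 (0.338) and Marco (0.285), the marker with a negative difference and the marker with the largest positive one. Among 9622 candidate genes, the 6 nearest to the mean profile over these 6 arrays were C1qa (0.028), Fermt3 (0.039), Adgre4 (0.041), Il18bp (0.051), Unc93b1 (0.052) and Tfec (0.052). C1qa is a subunit of complement C1q, Fermt3 is the kindlin of blood cells, and Adgre4 is a relative of Adgre1. Il18bp neutralises interleukin 18, Unc93b1 carries Toll-like receptors to endosomes, and Tfec is a transcription factor of macrophages. C1qa had 10.14, 9.66 and 9.94 in HFD, against 9.37, 9.44 and 9.51 in RD. Of the 6, Adgre4 passed (0.51 ± 0.10, limma adjusted p = 0.029), and when 1 array was left out it passed only without HFD replicate 2 (limma adjusted p up to 0.106). These 6 genes were picked by likeness over both diets, so a positive difference near that of the markers follows from the choice.

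Nearest to Cd5l alone were Ifi30 (0.044), AB124611 (0.070) and Mlkl (0.089). Their likeness was measured over both diets, so a rise near that of Cd5l follows from the choice and is no separate evidence. Ifi30 is a lysosomal thiol reductase of antigen presenting cells, and Mlkl is the pseudokinase that carries out necroptosis. Ifi30 averaged 11.06 ± 0.30 in HFD and 10.18 ± 0.09 in RD (SD, n = 3 each) and rose by 0.88 ± 0.14 (limma adjusted p = 0.011). It did not pass without RD replicate 1 or RD replicate 2 (limma adjusted p up to 0.056). AB124611 rose by 0.82 ± 0.15 and Mlkl by 0.79 ± 0.17 (limma adjusted p = 0.020 and 0.033), and both calls were lost without HFD replicate 3 or any 1 RD array (limma adjusted p up to 0.121).

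Of the other surface and secreted Kupffer cell genes, 18 were measured of 20 listed, and 5 rose and 0 fell, against 3.11% and 2.24% of all genes. At an unadjusted limma p under 0.05, 12 were higher and 2 lower, against 11.0% and 8.65% of all genes. In this list 16 differences were positive, as were 49.2% over all genes, and the median over the 18 was 0.40. Hmox1, the haem oxygenase that degrades haem of engulfed red cells, had 10.59, 10.23 and 10.30 in HFD, against 9.27, 9.18 and 9.28 in RD, a rise of 1.13 ± 0.10 (limma adjusted p = 7.6e-04). Slc40a1, the iron exporter ferroportin, had 12.03, 12.06 and 12.20 in HFD, against 11.47, 11.51 and 11.48 in RD, a rise of 0.61 ± 0.07 (limma adjusted p = 0.0027). Both passed whichever array was left out. The 2 genes with negative differences, chosen after their values were seen, were the lectin Cd209f (-0.29 ± 0.10, limma adjusted p = 0.134) and the complement component C6 (-0.38 ± 0.16, limma adjusted p = 0.245). Cd209f had every HFD array below every RD array, and the C6 arrays overlapped. Other cells make Hmox1 and Slc40a1 too, and Hmox1 is also a target of the stress factor NRF2.

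C1qb, a second C1q subunit, rose by 0.64 ± 0.13 (limma adjusted p = 0.032), a call lost without HFD replicate 3 or any 1 RD array (limma adjusted p up to 0.119). The other risers, chosen after their values were seen, were the lysosomal glycoprotein Cd68 (0.60 ± 0.14) and the complement stabiliser properdin, Cfp (0.70 ± 0.16), with limma adjusted p = 0.046 and 0.048. When 1 array was left out, both passed only without HFD replicate 2 (limma adjusted p up to 0.159). The count of risers in this list ran from 2 to 9 over the arrays left out, with 2 without HFD replicate 3 or any 1 RD array, 3 without HFD replicate 1 and 9 without HFD replicate 2.

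None of the 13 macrophage transcription factors measured of 14 listed passed in limma. At an unadjusted limma p under 0.05, 7 were higher and 0 lower, against 11.0% and 8.65% of all genes. Of the 13 differences 11 were positive, against 49.2% over all genes. The median of the factors was 0.32, or 0.18 without HFD replicate 1. Among the brighter genes, where the dimmer factors were left out, the median was 0.14. Tfec had a difference of 0.50 ± 0.13 (limma adjusted p = 0.073), the haematopoietic factor Runx1 0.48 ± 0.14 (limma adjusted p = 0.104) and Spi1, which encodes PU.1, 0.48 ± 0.15 (limma adjusted p = 0.112). Without HFD replicate 2, 2 of the factors passed. Nr1h3, the oxysterol receptor LXR alpha that upholds Kupffer cell identity, was at -0.12 ± 0.08 (limma adjusted p = 0.508). It was chosen after its values were seen. All these values are of whole liver RNA, and the cells that gave each factor's signal were not separated.

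Of 11 measured of 13 listed niche signals and ligands of the receptors, 1 rose and 0 fell, against 3.11% and 2.24% of all genes. The median of the 11 was 0.06. Hp, the haptoglobin that Cd163 clears with haemoglobin, rose by 0.36 ± 0.07 (limma adjusted p = 0.032) and averaged 13.44 in HFD and 13.08 in RD. When 1 array was left out, it passed only without HFD replicate 3 (limma adjusted p up to 0.099). Tgfb1, a growth factor that supports Kupffer cell identity, had a difference of 0.46 ± 0.11 (limma adjusted p = 0.057). Dll4, the endothelial Notch ligand, was at -0.19 ± 0.06 (limma adjusted p = 0.128). For the ligands of Csf1r, chosen after their values were seen, Csf1 was at 0.24 ± 0.10 and Il34 at 0.06 ± 0.09 (limma adjusted p = 0.223 and 0.790).

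**Figure D3:**
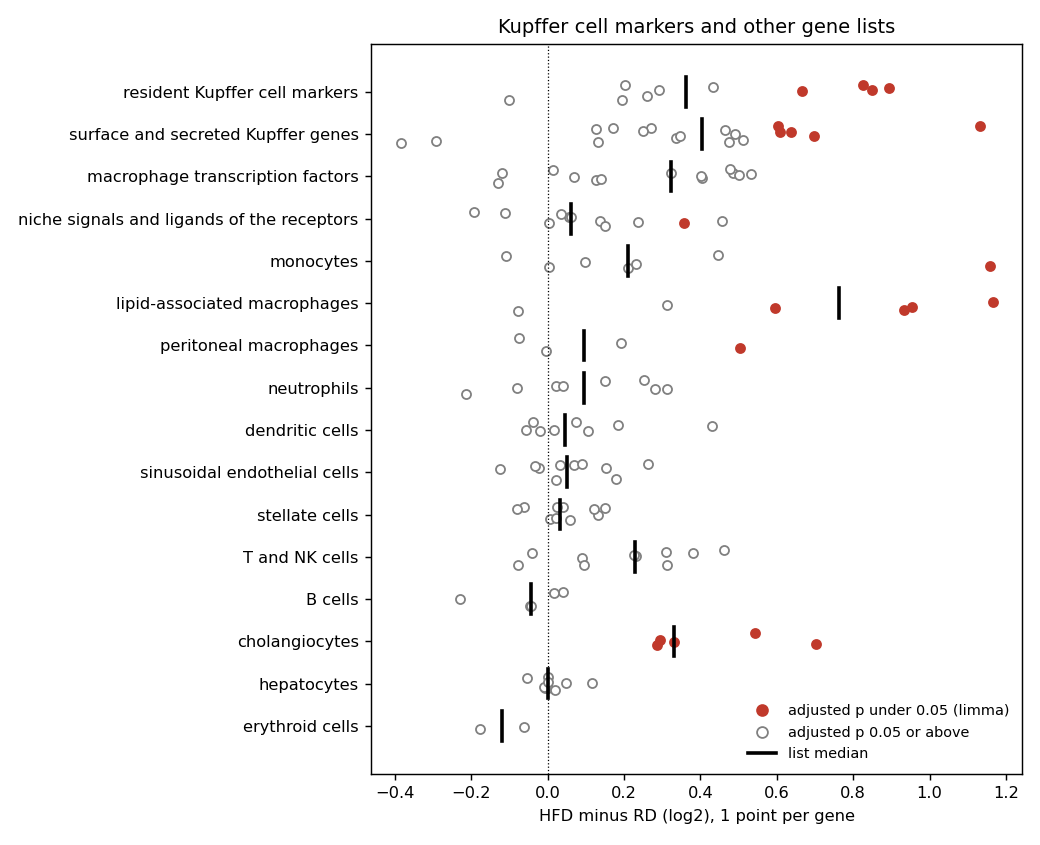
Difference between the diets (HFD minus RD, log2; horizontal axis) for each measured gene of the Kupffer cell markers and of 15 other lists, with the list median as a black bar and genes at an adjusted p under 0.05 in red. The medians of the Kupffer cell lists lie at 0.36 and 0.40, those of lipid-associated macrophages, cholangiocytes and T and NK cells at 0.76, 0.33 and 0.23, and those of endothelial, stellate and hepatocyte markers at 0.05, 0.03 and 0.00.

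Markers of other liver cells were read in the same arrays, and the part of each cell type in the Kupffer cell result was not tested. Beside the counts of these and the later lists, 3.11% of all genes were higher and 2.24% lower at the adjusted threshold. At an unadjusted limma p under 0.05 the shares were 11.0% and 8.65%. None of the 9 hepatocyte markers passed in limma (0 at an unadjusted p under 0.05), and their median was 0.00. Their summed signal was 149659 to 153308 in HFD and 150900 to 152067 in RD. Their mean log2 signal was 13.91 in HFD and 13.90 in RD, near the top of the deposited range. Whether signals this high could still show a change was not tested. The dimmest, Asgr1, was at 0.12 ± 0.06 (limma adjusted p = 0.363). Every HFD array lay above every RD array for 2 of the 9 (Asgr1 and Trf) and below for 1 (Cps1), against 14.0% and 11.7% of all genes. None of the 10 markers of sinusoidal endothelial cells passed (1 higher at an unadjusted p under 0.05). Their median was 0.05 and their summed signal was 17136 to 19558 in HFD and 16246 to 17227 in RD. The smallest p was that of Cdh5, the endothelial cadherin, at 0.26 ± 0.08 (limma adjusted p = 0.110). Next came Clec4g at 0.18 ± 0.08 and Pecam1 at 0.15 ± 0.07 (limma adjusted p = 0.274 and 0.294). Every HFD array lay above every RD array for 3 of the 10 endothelial markers and below for 1, against 14.0% and 11.7% of all genes. The scavenger receptor Stab2, chosen after its values were seen, was at -0.02 ± 0.06. None of the 10 stellate cell markers passed (0 at an unadjusted p under 0.05). Their median was 0.03, with a summed signal of 15679 to 16904 in HFD and 14833 to 16063 in RD.

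Genes of lipid-associated macrophages, the cells found around fat-laden tissue, rose too. Of 6 measured genes of 7 listed, 4 rose and 0 fell, against 3.11% and 2.24% of all genes. The median of the 6 was 0.76. The summed signal of this list was 1622 to 1927 in HFD and 1014 to 1123 in RD. The tetraspanin Cd9 rose by 0.93 ± 0.12, the elastase Mmp12 by 1.17 ± 0.17 and the galectin Lgals3 by 0.95 ± 0.15 (limma adjusted p = 0.0044, 0.0083 and 0.012). Gpnmb, chosen after its values were seen, rose by 0.59 ± 0.10 (limma adjusted p = 0.016). Lgals3 was lost without RD replicate 2 (limma adjusted p = 0.056), and Gpnmb without any 1 RD array (limma adjusted p up to 0.060). Trem2, the lipid receptor that defines these cells had 7.65, 7.78 and 7.84 in HFD, against 7.83, 7.81 and 7.86 in RD, and was at -0.08 ± 0.07 (limma adjusted p = 0.619). It too was chosen after its values were seen.

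All 5 measured markers of cholangiocytes, the bile duct cells, of 6 listed rose, against 3.11% of all genes. The median of these 5 markers was 0.33. Their summed signal was 1169 to 1329 in HFD and 863 to 954 in RD. The adhesion molecule Epcam rose by 0.54 ± 0.10, the keratin Krt19 by 0.70 ± 0.14 and the factor Sox9 by 0.29 ± 0.06 (limma adjusted p = 0.019, 0.031 and 0.037). Krt7 rose by 0.33 ± 0.07 and the chloride channel Cftr by 0.29 ± 0.07 (limma adjusted p = 0.041 and 0.044), both chosen after their values were seen. The count was 0 without HFD replicate 1 or RD replicate 1 and 1 without each other array, with limma adjusted p up to 0.144.

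Blood leukocyte markers gave few calls. Of 7 monocyte markers measured of 9 listed, 1 rose, with a median of 0.21 and a summed signal of 634 to 864 in HFD and 482 to 506 in RD. At an unadjusted limma p under 0.05, 3 of the 7 were higher and 0 lower, against 11.0% and 8.65% of all genes. Of the 7 differences 6 were positive. The riser was Plac8, at 1.16 ± 0.16 (limma adjusted p = 0.0060), whichever array was left out. Plac8 was also the brightest of the monocyte genes (mean 8.51 in HFD and 7.35 in RD) and weighed most in their sum. The integrin Itgam was at 0.23 ± 0.08 and Chil3 at 0.21 ± 0.09 (limma adjusted p = 0.149 and 0.252). The monocyte chemokine receptor Ccr2, chosen after its values were seen, had 6.13, 5.39 and 5.14 in HFD, against 5.14, 5.09 and 5.08 in RD. Its difference was 0.45 ± 0.21 (limma adjusted p = 0.303). None of 8 neutrophil markers passed (1 higher at an unadjusted p under 0.05), with a median of 0.09 and a summed signal of 518 to 607 in HFD and 504 to 516 in RD. The neutrophil genes Mmp8, S100a8 and Ly6g were at 0.25 ± 0.11, -0.21 ± 0.09 and 0.15 ± 0.08.

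Of 4 peritoneal macrophage markers 1 rose, Prg4 (0.50 ± 0.08, limma adjusted p = 0.013), which other cells also make, and it was lost without RD replicate 1 or RD replicate 2 (limma adjusted p up to 0.057). The defining factor Gata6 was at 0.19 ± 0.11 and the lipoxygenase Alox15 at -0.08 ± 0.08, and the list's median was 0.09, with a summed signal of 3974 to 4367 in HFD and 2966 to 3344 in RD. Prg4 was the brightest gene of the list (mean 11.58 in HFD and 11.08 in RD) and weighed most in that sum. None of 8 dendritic cell markers passed (1 higher at an unadjusted p under 0.05). Their median was 0.05, with Cd209a at 0.43 ± 0.17 and Ccr7 and Flt3 at 0.18 ± 0.09 and 0.11 ± 0.07. None of 10 T and NK cell markers passed either (1 higher at an unadjusted p under 0.05), with a median of 0.23, or 0.087 without HFD replicate 1. Their mean log2 signal was 6.89, 6.29 and 6.43 in HFD replicates 1 to 3, against 6.30, 6.31 and 6.40 in RD replicates 1 to 3, so HFD replicate 1 stood above every other array.

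The T cell genes Cd8b1 and Cd3e and the granzyme Gzma were at 0.23 ± 0.09, 0.23 ± 0.12 and 0.31 ± 0.16. None of 5 B cell markers measured of 6 listed passed (0 at an unadjusted p under 0.05), with a median of -0.04 that turned positive without RD replicate 1 or RD replicate 3 and among the brighter genes. The B cell genes Cd79a, Ms4a1 and Ebf1 were at -0.23 ± 0.14, -0.05 ± 0.09 and -0.04 ± 0.09. Of 5 erythroid markers 2 were measured and 0 passed (0 at an unadjusted p under 0.05), with Alas2 at -0.18 ± 0.10 and Slc4a1 at -0.06 ± 0.10.

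**Figure D4:**
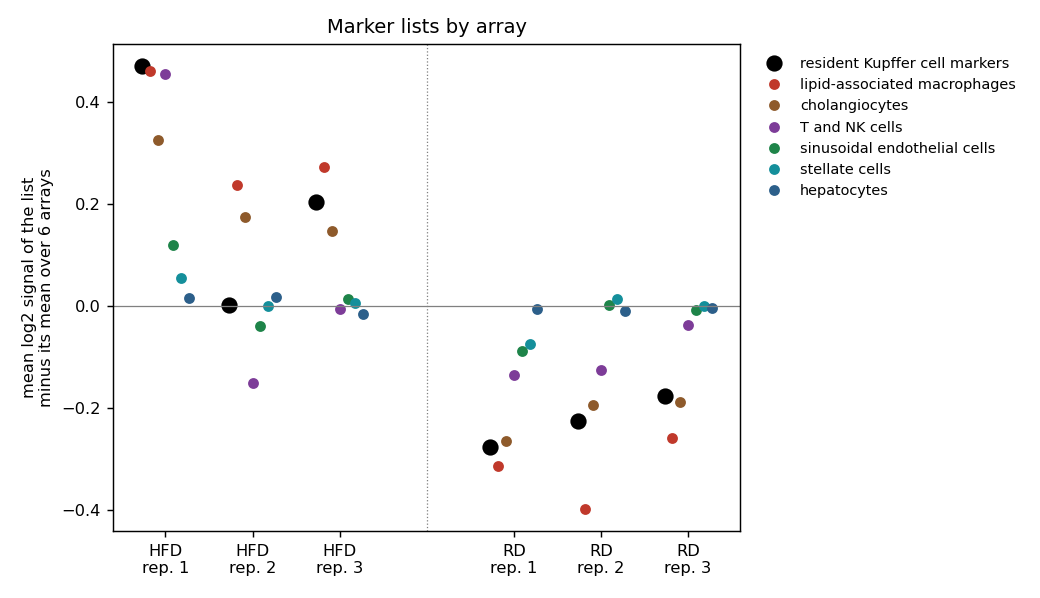
Mean log2 signal of 7 marker lists in each array, minus the list's mean over the 6 arrays (vertical axis), with the 3 HFD arrays left of the 3 RD arrays. Kupffer cell markers (large black points) lie at 0.47, 0.0024 and 0.20 in HFD and at -0.28, -0.23 and -0.18 in RD. Hepatocyte markers, most of them near the top of the signal range, stay near 0 in all 6 arrays.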

How the data were processed

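Per the labels, total RNA of frozen liver was labelled with a GeneChip terminal labelling kit and put on 1 array per replicate, 3 per diet. The authors deposited log2 values of 35512 probe sets (base 2 inferred from the range of 2.28 to 14.86). Neither the summarisation nor the normalization is given in the sources used here. Values were used as deposited, without detection calls, so background was not tested, and scan batches were not used. The number of arrays limits the precision.

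Probe sets with 1 symbol in the platform annotation were kept, and the brightest per gene by mean over 6 arrays, which gave 19938 genes with medians of 7.51 to 7.56 per array. The model held diet as its only term and was fitted in limma 3.58.1 (R 4.3.3; lmFit and eBayes, two-sided, Benjamini-Hochberg over all genes, threshold 0.05). The steps were checked on simulated data. SE is limma's moderated SE, and summed signals are sums of unlogged values, in which the brightest genes weigh most.

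The 10 markers and the other lists were chosen with earlier results of these data known. All markers are named, with up to 3 genes of each other list by smallest unadjusted p, and the genes nearest in profile among those brighter than the median gene (6 to the markers, 3 to Cd5l). Predicted genes, small RNA and olfactory receptor genes were not candidates. Other named genes are said to be chosen after their values were seen. Alternatives were quantile normalization, median centring, a filter to brighter genes, averaged probe sets, all rows of the table in the fit, a robust prior with an intensity trend, weighted arrays, a block for replicate number, and each array left out.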

Additional observations from a re-analysis of the deposited data

How the results depend on the processing

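The count of 4 Kupffer cell markers higher in HFD was also 4 after quantile normalization, median centring or averaging probe sets. Each marker has 1 probe set, so averaging left the marker values as they were. The count was 3 with an intensity trend and robust prior or with array weights, where Marco did not pass. Among the brighter genes it was 3 of 9, since Marco fell under that filter and was not tested. Of all genes tested, 8.65% were higher under that filter, against 3.11% in the main fit. That share was 4.26% with the trend, 3.42% with weights, 3.25% after quantile normalization, 3.64% after median centring and 3.1% with averaged probe sets. The marker count was 1, Cd5l, when every row of the table entered the fit. There, 168 of the 35512 rows were higher (0.473%) and 173 lower. The main fit had 621 and 446, which are genes and not rows. The marker count ran from 1 to 5 when 1 array was left out. The count of lower markers was 0 throughout, and the median difference stayed between 0.29 and 0.49. That median is 0.36 by construction with averaged probe sets, every row, a trend or a block, which leave the marker differences unchanged. Among the other lists, the B cell median was 0.0408 among the brighter genes, where the dimmer B cell genes were left out. It was -0.0794 to 0.0272 over the arrays left out. The hepatocyte median ran from -0.0094 to 0.0097 and the endothelial median from -1e-04 to 0.0893 over the arrays left out. The 5 risers among surface and secreted genes numbered 8 with median centring or brighter genes only, 3 with array weights and 2 with every row. The 5 cholangiocyte risers numbered 2 among brighter genes and 0 with every row. Epcam, Krt7 and Cftr fell under the brightness filter and were not tested there, while Krt19 and Sox9 both passed. The 4 risers of lipid-associated macrophages numbered 2 and 1 in the same settings. Mmp12 and Gpnmb fell under that filter, while Cd9 and Lgals3 both passed. The single peritoneal riser was lost with every row. Of niche signals 1 rose, with 2 after either normalization, with brighter genes, a trend or weights, and 0 with every row. With brighter genes or a trend 1 transcription factor passed.

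With the replicate number as a block, 3 Kupffer cell markers were higher (Cd5l, Marco and Timd4), with Adgre1 at a limma adjusted p = 0.051. The counts over all genes were then 318 higher (1.59%) and 245 lower. Surface and secreted genes then numbered 2, cholangiocyte markers 1 and niche signals 0. Deviations of same-numbered HFD and RD arrays correlated across genes at -0.107, 0 and 0.117, so the numbers were not taken as pairs, and not every array correlated best with its own number. How many of these genes lie near background is not known, since detection calls were not used.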
